A study of Mus musculus with 31 samples.

Results

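Isl1, Pou4f1, Pou4f2, Runx1, Tlx3, Prrxl1, Klf7 and Hoxd1 encode transcription factors that set or maintain the identity of somatosensory neurons. These 8 genes were taken by symbol, through the GENCODE M21 annotation, from the 55536 genes counted in both tables of a mouse study, and were followed over all of its libraries to see how far they were restricted to the cell body. The study sequenced RNA bound to ribosomes that were purified by translating ribosome affinity purification (TRAP), in which a tagged ribosomal protein is made only in chosen cells and its ribosomes are pulled down with their RNA. The Cre groups carried Nav1.8-Cre;L10a-eGFP-fl/fl, in which Cre made from the promoter of Nav1.8 (Scn10a, a sodium channel of nociceptors) turns on the ribosomal protein L10a fused to green fluorescent protein (eGFP in the genotype labels, eGP in the sample titles). The negative controls carried L10a-eGFP-fl/fl without Cre, so that their libraries hold RNA recovered without tagged ribosomes. Both genotypes carried the floxed reporter, and the labels used here give no age, sex or number of animals per library.

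There were 31 libraries in 8 groups. Batch 1 held 4 Cre and 4 control libraries of central axons (lumbar dorsal roots with spinal cord) and 4 Cre and 4 control libraries of somas (lumbar dorsal root ganglia, DRG). Batch 2 held 4 Cre and 3 control libraries of peripheral axons (sciatic nerve) and another 4 Cre and 4 control libraries of somas. Central axons therefore share a batch only with the somas of batch 1, and peripheral axons only with those of batch 2. Dorsal roots, spinal cord and nerve also hold glia, spinal neurons and connective tissue, whose RNA can reach a library without a tag.

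Sensory neurons arise from the neural crest and are specified by transcription factors that act in layers. Isl1 (a LIM homeodomain protein) and Pou4f1 (a POU homeodomain protein, also called Brn3a) are made in nearly all of them and close the early neurogenic programme. Runx1 (a runt domain protein) then sets the fate of pain, itch and thermal neurons, Tlx3 and Prrxl1 (homeodomain proteins, the latter also called DRG11) serve nociceptive neurons of the ganglion and of the dorsal horn, Klf7 (a zinc finger protein of the KLF family) supports the survival and maturation of nociceptors, and Hoxd1 (a Hox protein) shapes the nerve endings and circuits of nociceptors. Pou4f2 (Brn3b) is the close relative of Pou4f1 that is best known from retinal ganglion cells. Their proteins act in the nucleus. Isl1 is also known from spinal motor neurons, Tlx3 and Prrxl1 from excitatory neurons of the dorsal horn, and Runx1 from blood cells, macrophages and microglia.

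In GRCm38 (mm10) all 8 are protein-coding genes: Isl1 (ENSMUSG00000042258, chr13:116298281-116309689, minus strand), Pou4f1 (ENSMUSG00000048349, chr14:104461676-104467999, minus strand), Pou4f2 (ENSMUSG00000031688, chr8:78433010-78436645, minus strand), Runx1 (ENSMUSG00000022952, chr16:92601466-92826149, minus strand), Tlx3 (ENSMUSG00000040610, chr11:33200752-33203589, minus strand), Prrxl1 (ENSMUSG00000041730, chr14:32599407-32649246, plus strand), Klf7 (ENSMUSG00000025959, chr1:64029447-64122282, minus strand) and Hoxd1 (ENSMUSG00000042448, chr2:74762980-74765142, plus strand). Over GENCODE M21 transcripts, 23 of the 4623 different stretches of 50 bases in Pou4f1 also occurred in Pou4f2 (0.5%; 0.73% of those in Pou4f2). For Klf7, 39.36% of its exon length lies opposite Gm13748 or Gm26649. The library kit does not mark strand, so reads of Klf7 and of these antisense genes cannot be told apart there; Gm26649 was at 0 to 312 CPM (each count as parts per 1 M counts of its library) with a median of 0, Gm13748 at 0 to 44.5 CPM with a median of 0, and Klf7 at 129 to 1119.9 CPM. The counting program and its handling of reads that fit several genes are not given in the sources used here.

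RefSeq promoter windows were available for all 8 genes, with 2 for Runx1. 3 short motifs of the families to which the factors belong and an E-box, the site of neurogenin-type proteins, were searched on both strands in the 250 bases before each start. The sequences shown are those of Isl1 and Pou4f1, the earliest of the 8 to act, and of Hoxd1, which was at 0 in 2 control groups (GRCm38.p6, written 5′ to 3′ on the gene's strand, capitals mark matches, on either strand, to the 4 motifs spelled out after the sequences).
Isl1, chr13:116309689-116309938, minus strand: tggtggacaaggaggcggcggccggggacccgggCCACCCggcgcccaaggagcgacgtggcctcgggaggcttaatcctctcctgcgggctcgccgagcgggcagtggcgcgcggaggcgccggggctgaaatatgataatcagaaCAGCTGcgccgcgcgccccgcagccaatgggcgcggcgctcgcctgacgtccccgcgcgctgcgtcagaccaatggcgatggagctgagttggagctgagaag
Pou4f1, chr14:104468000-104468249, minus strand: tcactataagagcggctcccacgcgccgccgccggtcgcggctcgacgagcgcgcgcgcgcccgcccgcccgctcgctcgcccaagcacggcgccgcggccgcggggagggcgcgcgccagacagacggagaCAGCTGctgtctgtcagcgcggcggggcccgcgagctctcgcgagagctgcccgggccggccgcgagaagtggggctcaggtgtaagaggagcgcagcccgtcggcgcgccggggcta
Hoxd1, chr2:74762730-74762979, plus strand: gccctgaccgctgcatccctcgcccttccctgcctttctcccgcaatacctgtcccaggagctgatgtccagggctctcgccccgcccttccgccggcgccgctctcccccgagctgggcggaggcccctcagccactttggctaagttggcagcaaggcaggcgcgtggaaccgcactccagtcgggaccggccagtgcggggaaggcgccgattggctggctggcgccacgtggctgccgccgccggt
The Isl1 window held 1 CCACCC (the core of KLF sites) and 1 CAGCTG (the E-box), the Pou4f1 window 1 CAGCTG, and the Hoxd1 window none of the 4. Over all 9 windows, CCACCC occurred in 3, where 28.08% of 32851 windows of all genes held it, CAGCTG in 2 (13.0% of all) and TGTGGT (the core of Runx sites) in 1 (14.05% of all). The homeodomain core TAATTA was in 0 of the 9, and in 4.84% of all. Guanine and cytosine made up 71.2%, 78.0% and 71.6% of the windows of Isl1, Pou4f1 and Hoxd1, and 7 of the 9 lay above the median of 52.4% over all windows.

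Library totals ran from 3.6 to 19.6 M counts, so that 3 counts, taken as the floor of detection, equal 0.153 to 0.833 CPM. These floors cover counting error only, because the libraries hold no molecular identifiers. Markers of the labelled tissues were present: the summed level of 11 nociceptor markers was 8359 to 20651 CPM in the batch 1 Cre somas and 12379 to 15890.5 in those of batch 2, and 12 dorsal horn neuron markers summed to 247 to 700.2 CPM in the central axon Cre libraries against 10.7 to 16.9 in their somas. The soma controls held the nociceptor markers too, at sums of 5505 to 15348 CPM in batch 1 and 5955 to 10999.7 CPM in batch 2. A few libraries stood apart. Central axon Cre replicate 1 was ranked much like the batch 1 Cre somas (Spearman's rho across genes 0.882 to 0.942), and its 6 astrocyte markers summed to 296 CPM against 1049 to 1347 CPM in the other 3. Peripheral axon Cre replicate 2 had 15.1 M counts against 4.1 to 5.77 M in the other 3 and lay nearer the somas (rho 0.843 to 0.887, against 0.654 to 0.796). Central axon control replicate 1 resembled the central axon Cre libraries (rho 0.876 to 0.921). Batch 2 soma control 5 had 18.1 M counts (the other 3 had 3.6 to 4.52 M) and was close to the Cre somas (rho 0.952 to 0.968). The batch 1 soma controls correlated with each other at only 0.478 to 0.6, and replicate 3 among them had a scaling factor of 0.0547. Scn10a, whose promoter drives Cre, was present in every Cre library, at 421, 105, 123 and 45.1 CPM in central axons and 42.1, 304, 116 and 156 CPM in peripheral axons. Its presence does not by itself show recovery through the tag. In somas its mean was 410 CPM with Cre and 283 without in batch 1, and 364 and 370 CPM in batch 2. The control means were 8.00 CPM in central axons and 55.2 CPM in peripheral axons.

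All 8 factors were detected in all 8 Cre soma libraries. Levels were also put on the scale of CPM divided by exon length in kilobases (RPKM), with the exons of all annotated transcripts of a gene merged. On that scale Tlx3 had the highest mean level in the batch 1 Cre somas, at 145 ± 22.3 RPKM (SD, n = 4), followed by Isl1 at 81.4 ± 20.99, Prrxl1 at 77.9 ± 7.37, Klf7 at 77.1 ± 15.4 and Pou4f1 at 58.6 ± 11.3. Hoxd1, Runx1 and Pou4f2 were lower, at 22.6 ± 5.93, 5.95 ± 2.97 and 5.46 ± 2.71 RPKM. In the batch 2 Cre somas the order was Klf7 (110.1 ± 12.6 RPKM), Isl1 (86.8 ± 8.27), Prrxl1 (84.2 ± 15.3), Tlx3 (48.0 ± 20.2), Pou4f1 (36.4 ± 14.1), Hoxd1 (24.2 ± 5.49), Runx1 (6.12 ± 0.855) and Pou4f2 (5.69 ± 0.706). The 3 lowest places were thus the same in both batches, while the level of Tlx3 in batch 2 was below all of its values in batch 1. These are the same tissue and genotype by label, and no test was made between batches. The order depends on the exon length used. By mean CPM in batch 1, Klf7 (627) was above Tlx3 (222), and Runx1 (71.6) was above Hoxd1 (42.1).

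**Figure D1:**
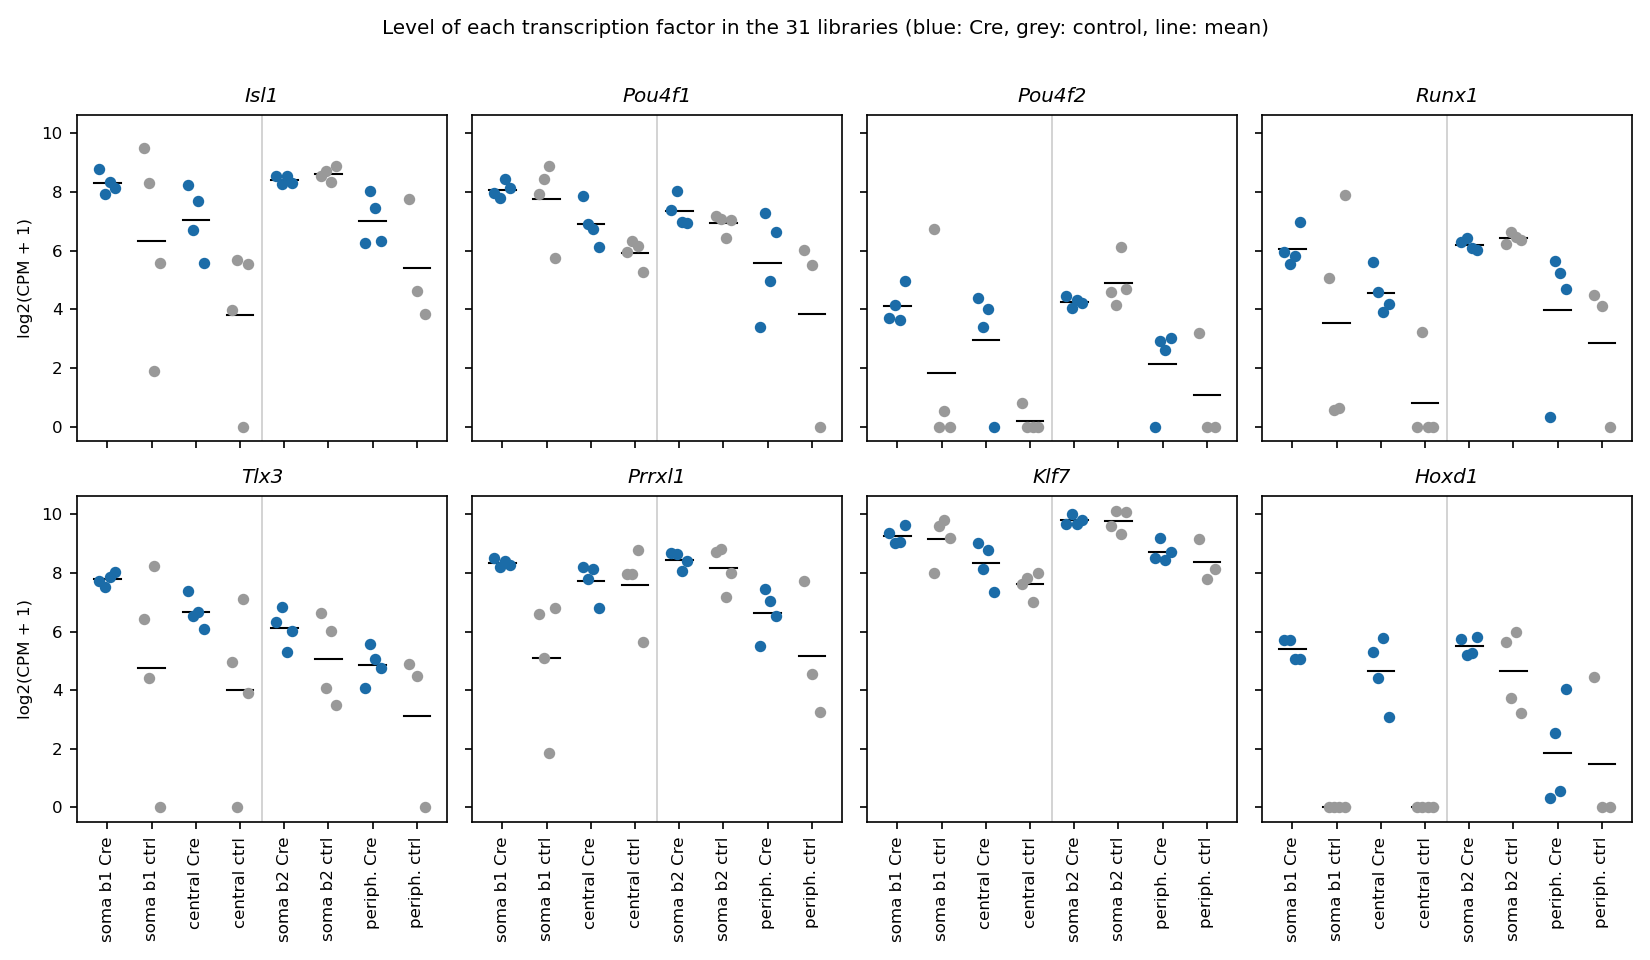
Level of each factor as log2(CPM + 1) on the vertical axis for each of the 31 libraries, in 8 groups on the horizontal axis (b1 and b2, batches 1 and 2; blue, Cre; grey, control; black line, mean of the log2 values; the grey vertical line parts the batches). The Cre soma libraries of a batch lie close together, axon libraries mostly lie below the Cre somas of their batch, and Hoxd1 is at 0 in all 4 batch 1 soma controls and all 4 central axon controls.

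The first comparison asked how the level of each factor in the central axon Cre libraries compared with that in the Cre somas. These libraries can also hold RNA recovered without a tag, and the levels in the controls are given further below. The mean level of all 8 was lower in the central axon Cre libraries, and all 8 were detected there: 31 of 32 values (8 genes in 4 libraries) were above the floor, and the mean CPM in axons was 35.6% (Runx1) to 70.9% (Hoxd1) of that in somas, with a median over genes of 53.4%. Pou4f1, Runx1 and Tlx3 passed the test of edgeR's quasi-likelihood method (Benjamini-Hochberg adjusted p under 0.05 over all genes, here termed called). The other 5 did not. All 8 fold changes were below 0 under each of the 15 alternatives run, scalings included. In the same comparison 5.11% of the 14480 genes tested were called lower in axons. Scn10a itself was at 42.3% of its soma level.

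Isl1, among the first factors of the lineage, had 438, 246, 320.4 and 284 CPM in the somas (replicates 1 to 4) and 303, 103, 206 and 46.5 CPM in the central axons. Axon replicate 1 lay within the range of the somas and the other 3 below it, with a log2 fold change of -1.36 ± 0.51 (SE) that was not called (adjusted p = 0.0955). Pou4f1 had 252, 219, 344 and 281 CPM in somas and 234, 118, 106 and 68.5 CPM in axons. Only axon replicate 1 reached the range of the somas, and Pou4f1 fell by 1.46 on the log2 scale (SE 0.41, adjusted p = 0.0347). Its relative Pou4f2 had 11.9, 16.6, 11.5 and 30.0 CPM in somas and 20.1, 9.51, 15.3 and 0 CPM in axons, where replicate 4 held 0 counts and the other 3 lay within or just under the soma range (log2 fold change -0.98 ± 0.92, adjusted p = 0.518).

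Runx1, the nociceptor fate factor, had 61.0, 45.9, 55.0 and 124 CPM in somas and 47.9, 23.0, 13.9 and 17.04 CPM in axons. It showed the largest fall of the 8, by 1.86 on the log2 scale (SE 0.47, adjusted p = 0.0215), although axon replicate 1 was above one soma library. Tlx3 had 212, 182, 231 and 263 CPM in somas and 165, 90.7, 102 and 67.2 CPM in axons. Every axon library of Tlx3 was below every soma library, and it fell by 1.47 (SE 0.35, adjusted p = 0.0173). Prrxl1 had 361, 294, 339 and 306 CPM in somas and 292, 223, 279 and 112 CPM in axons. Its groups did not overlap either, but the difference was small and not called (log2 fold change -0.94 ± 0.36, adjusted p = 0.0993).

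Klf7, the zinc finger factor, had 663, 523, 533 and 788 CPM in somas and 515, 280.2, 441 and 163 CPM in axons, again with no overlap and just short of a call (log2 fold change -1.24 ± 0.40, adjusted p = 0.0564). Hoxd1 had 51.8, 51.6, 32.4 and 32.8 CPM in somas and 38.3, 20.2, 53.5 and 7.47 CPM in axons. Axon replicate 3 exceeded all 4 somas and replicate 4 was far below them (log2 fold change -0.90 ± 0.51, adjusted p = 0.265). In all, 3 factors had every central axon library below every soma library, a pattern found in 4.17% of all genes tested. Central axon replicate 1 held the highest axon value of 7 of the 8 factors and replicate 4 the lowest value of 7. The nociceptor markers moved the same way, with a sum of 13595 CPM in replicate 1 and 3531 CPM in replicate 4, and their part in this order was not tested.

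Without central axon Cre replicate 1, the library most like the somas, 6 of the 8 were called lower (all but Pou4f2 and Hoxd1), and the share of all genes called lower was 9.18%. Without replicate 2, 3 or 4 of that group, edgeR called 0 of the 8, and 1.42%, 1.49% and 1.60% of all genes lower. A fit of all 4 groups of the batch called 0 factors and 0 genes lower. The fold changes given here are scaled by the trimmed mean of M-values (TMM); under library totals alone the median of all genes moved from 0.05 to 0.50 and 2 factors, Runx1 and Tlx3, were called. Over all genes, 1250 were called higher and 740 lower with TMM, and 2146 higher and 293 lower under library totals alone.

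**Figure D2:**
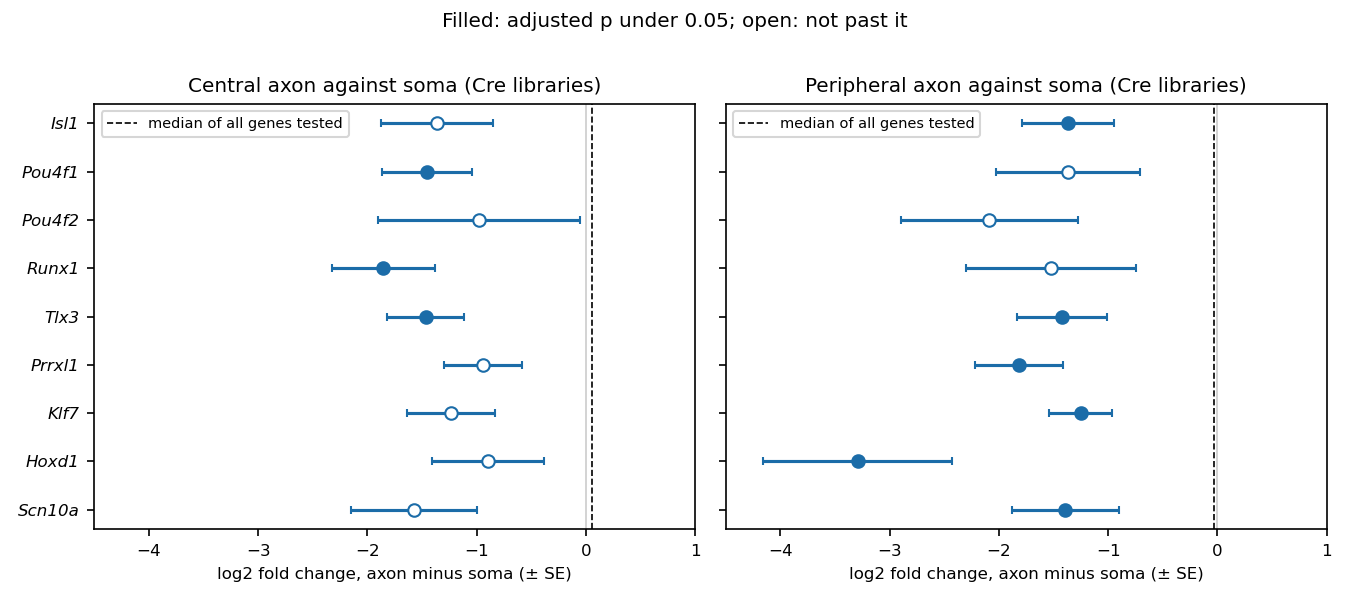
Log2 fold change of each factor and of Scn10a, axon minus soma on the horizontal axis, with SE bars (n = 4 libraries in each group), for central axons on the left and peripheral axons on the right. Filled points have an adjusted p under 0.05 (3 and 5 factors), open points do not, and the dashed line is the median of all genes tested, at 0.05 and -0.03.

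Peripheral axons were compared with the somas of batch 2. The mean level of all 8 factors was again lower in the axons, at 11.6% (Hoxd1) to 47.9% (Klf7) of the soma level with a median over genes of 39.4%. Isl1, Tlx3, Prrxl1, Klf7 and Hoxd1 were called lower, and Pou4f1, Pou4f2 and Runx1 were not. All 8 fold changes were below 0 under each of the 14 alternatives run. Of the 15467 genes tested, 12.5% were called lower in axons. Detection was less complete than in central axons, with 28 of 32 values above the floor: 1 of the others was 0 and 3 were 1 or 2 counts. Peripheral axon replicate 1 held 3 of these 4 values. The peripheral axon Cre libraries held 14704 to 21589 genes with a count, and those of central axons 18750 to 20681. Scn10a was at 42.5% of its soma level (log2 fold change -1.39 ± 0.49, adjusted p = 0.0492).

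Hoxd1 had the largest fall. Its somas (replicates 5 to 8) held 52.1, 35.5, 37.2 and 55.6 CPM and the peripheral axons (replicates 1 to 4) 0.243, 4.85, 0.488 and 15.3 CPM, which are 1, 73, 2 and 88 counts. Replicates 1 and 3 were under the floor and replicate 4 carried most of the signal, all well below the somas. Hoxd1 fell by 3.29 on the log2 scale (SE 0.86, adjusted p = 0.0138). Prrxl1 was next among the called factors, at 407, 395, 268 and 335 CPM in somas and 44.7, 174, 129 and 92.2 CPM in axons, where it fell by 1.81 (SE 0.40, adjusted p = 0.00594). Its highest axon library was still below its lowest soma library.

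Isl1 had 374, 311, 369.7 and 319 CPM in somas and 75.9, 261, 175 and 78.7 CPM in peripheral axons, without overlap, and fell by 1.37 (SE 0.42, adjusted p = 0.0297). Klf7, which supports the maturation of nociceptors, had 822, 1039, 822 and 898 CPM in somas and 359.7, 588, 349 and 420.2 CPM in axons. It had the smallest fall, by 1.25 (SE 0.29), but also the smallest error (adjusted p = 0.00726), and it was the one factor called under all 14 alternatives of this comparison. Tlx3 had 79.7, 113, 38.9 and 63.3 CPM in somas and 15.8, 46.8, 32.2 and 25.8 CPM in axons. Its groups overlapped, with soma replicate 7 below the highest axon library, and it fell by 1.43 (SE 0.41, adjusted p = 0.0215).

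Pou4f1, Runx1 and Pou4f2 were the factors that were not called. Pou4f1 had 168, 264, 125 and 123 CPM in somas and 9.48, 155, 30.3 and 99.2 CPM in axons, a wide spread among axons, whose upper end reached into the soma range (log2 fold change -1.37 ± 0.66, adjusted p = 0.133). Runx1 had 77.6, 86.0, 67.1 and 63.4 CPM in somas and 0.243, 49.7, 36.6 and 24.6 CPM in axons, and Pou4f2 had 20.98, 15.6, 18.7 and 17.6 and 0, 6.64, 5.12 and 7.11 CPM. For both, every axon library was below every soma library and replicate 1 was at or near 0 (log2 fold changes -1.52 ± 0.78 and -2.09 ± 0.81, adjusted p = 0.16 and 0.0694). Without axon replicate 1 both were called by edgeR, with adjusted p = 0.00912 for Runx1 and 0.00379 for Pou4f2. In all, 6 factors had no overlap between peripheral axons and somas, a pattern of 16.0% of all genes tested. Without axon replicate 2, the library that lay nearer the somas, 6 factors and 18.7% of all genes were called lower, and without replicate 1 there were 7 factors and 17.9% of genes. Without axon replicate 4, 3 factors were called (Prrxl1, Klf7 and Hoxd1) with 11.3% of genes lower. A fit of all 4 groups of the batch called 1 factor (Klf7) with 2.89% of genes lower.

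Whether the 2 kinds of axon differed was tested as the difference between them, each relative to the Cre somas of its batch. None of the 8 was called by edgeR, where 13.1% of 16725 genes were. Of the 8, 1 had an unadjusted p under 0.05, beside 4791 of all genes. DESeq2 called 0 of the 8 and 3290 genes in all, and limma-voom 1 and 3179. Hoxd1 was the one with that p in edgeR (central minus peripheral log2 difference 2.55 ± 1.02, adjusted p = 0.1002), and without peripheral axon Cre replicate 4 it was called at 3.76 (adjusted p = 0.0198). Prrxl1 was at 1.04 ± 0.54 (adjusted p = 0.211), with a 95% interval of -0.01 to 2.10 from its SE, and Pou4f2 at 1.26 ± 1.33 (adjusted p = 0.574), with an interval of -1.35 to 3.86. For Isl1, Pou4f1, Runx1, Tlx3 and Klf7 the differences were 0.16, 0.09, -0.16, 0.13 and 0.17, with 95% intervals that reached from -2.05 to 1.72 for Runx1 and from -0.78 to 1.12 for Klf7. These intervals do not show that the axons are alike. The median over the 8 was 0.17, beside 0.26 over all genes.

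The controls showed the level of each factor in RNA recovered without a tag. CPM gives a share of each library and does not measure the amount of RNA pulled down. In central axons the controls held 20 of 32 values above the floor, against 31 of 32 in the Cre libraries. Fewer genes of any kind were found in these controls, with 10133 to 19006 genes with a count against 18750 to 20681 with Cre. The lower detection was thus not particular to the factors. Hoxd1 was at 0 counts in all 4 controls and at 38.3, 20.2, 53.5 and 7.47 CPM in the Cre libraries. Against a floor of 3 counts per control library its mean was at least 91.6-fold higher. With edgeR its unadjusted p was 0.000516 and its adjusted p 0.227, while DESeq2 (adjusted p = 9.04e-10) and limma-voom (0.00477) called it. Runx1 had 47.9, 23.0, 13.9 and 17.04 CPM with Cre and 0, 8.32, 0 and 0 CPM without, also with no overlap (adjusted p = 1). No overlap in that direction was found in 6.82% of the 14189 genes tested. None of the 7 factors tested was called by edgeR, and 2 genes were called in all, 0.0141%. The unadjusted p was under 0.05 for 2 of the 7 factors and for 684 genes in all. DESeq2 called 216 genes and limma-voom 137, with 1 factor in each, Hoxd1.

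Prrxl1 stood at the other end. It had 247, 246, 441 and 49.0 CPM in the central axon controls and 292, 223, 279 and 112 CPM in the Cre libraries (log2 fold change -0.03 ± 0.57, adjusted p = 1), and the control level was 404% of that in the batch 1 soma controls. Tlx3 and Klf7 were also present in the central controls, at 30.4, 0, 139 and 14.02 CPM and 197, 225, 129 and 253 CPM, and Pou4f1 at 61.3, 78.8, 70.6 and 38.1 CPM. Isl1 had 14.7, 50.9, 0 and 45.7 CPM there. In the same 4 controls the dorsal horn neuron markers summed to 279.7 to 1246 CPM with none of the 12 at 0 in all 4, and the 6 astrocyte markers to 1329 to 2347 CPM. The 11 nociceptor markers summed to 552 to 1515 CPM against 3531 to 13595 CPM with Cre, and Scn11a and Trpv1 were at 0 in all 4 controls. The part of spinal neurons in the levels of Tlx3, Prrxl1 and Isl1 was not tested. In bulk libraries such as these, fewer cells of a type and less RNA per cell cannot be told apart.

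In peripheral axons no factor was separated from the controls. edgeR called 0 of 8 and 0.0% of all 13970 genes (514 with an unadjusted p under 0.05, 0 of them among the 8), and DESeq2 called 27 genes and limma-voom 0, with 0 of the 8 in either. No factor had all Cre libraries above all controls, where 3.58% of genes did. The 3 controls were unlike each other: replicate 1 held the highest control value of all 8 factors, such as 219, 23.9 and 13.2 CPM for Isl1 and 20.9, 0 and 0 CPM for Hoxd1, and replicate 4 held 0 counts of 5 factors. Klf7 had 569, 222 and 280.0 CPM in controls and 359.7, 588, 349 and 420.2 CPM with Cre. The nociceptor markers were also highest in control 1, with sums of 6352, 2039 and 871 CPM in controls 1, 2 and 4.

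The factors were then compared between Cre and control somas. In batch 2 edgeR called 0 of 8 factors and 0.0% of 15280 genes (2503 had an unadjusted p under 0.05, 1 of them among the 8), and DESeq2 called 1160.0 genes and limma-voom 0, with 0 factors in either. Pou4f1 had 168, 264, 125 and 123 CPM with Cre and 143, 136, 84.7 and 130.0 CPM without (log2 fold change 0.71 ± 0.32, adjusted p = 0.3). Tlx3 and Hoxd1 were low in soma controls 6 and 8, at 99.1, 15.8, 63.3 and 10.2 CPM and 49.1, 12.3, 62.8 and 8.41 CPM in replicates 5 to 8, and near the Cre level in the other 2. In batch 1, Hoxd1 was called (adjusted p = 0.0421), with 4.42% of 11667 genes called. It was at 0 counts in all 4 controls and at 51.8, 51.6, 32.4 and 32.8 CPM with Cre. The mean with Cre was at least 119-fold above a floor of 3 counts per library, which covers counting error only. The call was lost without control 1, a or b and without any single Cre library. Every Cre library was above every control for 3262 of the 11667 genes tested, Prrxl1 and Hoxd1 among them. These controls held 9893 to 13753 genes with a count, against 15682 to 20477 in the Cre libraries.

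The other factors scattered widely among the batch 1 soma controls. Isl1 was at 721, 319, 2.697 and 47.0 CPM (controls 1, a, 3 and b), Pou4f2 at 107, 0, 0.431 and 0 CPM, Runx1 at 32.3, 0.469, 0.539 and 239.6 CPM and Tlx3 at 84.1, 20.3, 301 and 0 CPM. Of these 4, Isl1 and Pou4f2 were highest in control 1, Tlx3 in control 3 and Runx1 in control b. Klf7 had the same mean CPM in both genotypes (627 with Cre and 627 without), yet a fitted log2 fold change of -3.47 ± 1.99, and without control 3, the library with the scaling factor of 0.0547, that fold change was 0.02. For Pou4f1 the same step took the fold change from -3.70 to 0.24.

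The same comparison of axon with soma was made within the controls. Between central axon and soma controls edgeR called 0 of the 5 factors tested and 0.0% of 9202 genes (1138 had an unadjusted p under 0.05, 2 of them factors, and DESeq2 called 392 genes and limma-voom 754, with 0 factors in either). Klf7 was the 1 factor without overlap, lower in axons, a pattern of 1.13% of genes. Between peripheral axon and soma controls edgeR called 0 of 8 factors, where it called 0.0802% of 13715 genes. Of the 8, 3 had an unadjusted p under 0.05, beside 1341 of all genes. DESeq2 called 0 of the 8 and 607 genes in all, and limma-voom 1 and 260. All 8 fold changes were below 0, from -3.71 (Pou4f2) to -1.44 (Klf7), and Isl1, Pou4f1, Pou4f2, Runx1 and Klf7 had all 3 axon controls below all 4 soma controls, a pattern of 7.71% of genes. In peripheral axons, fold changes below 0 were thus not particular to the Cre libraries. Between the central axon and soma controls, 4 of the 5 factors tested had fold changes below 0, and Prrxl1 was at 1.68 ± 1.44. The difference between genotypes in these fold changes was not tested.

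Beside the 8 factors stood 25 other transcription factors and cofactors of sensory neurons. In central axons 22 could be tested, of which 4 were called lower and 2 higher (5.11% and 8.63% of all genes), with a median log2 fold change of -0.75, beside -1.30 for the 8 factors and 0.05 for all genes. Mafa, a Maf-family factor found in sensory and in dorsal horn neurons, was higher, at 113 ± 56.4 CPM in axons and 4.59 ± 3.02 CPM in somas (SD, n = 4 each, log2 fold change 4.19 ± 0.60, adjusted p = 0.000997). Lmo4, a cofactor that binds LIM partners, had 86.6 ± 14.96 CPM in axons and 205 ± 102 CPM in somas (SD, n = 4 each, log2 fold change -1.66 ± 0.37, adjusted p = 0.0123), while in peripheral axons Lmo4 was called higher than in somas (log2 fold change 1.58 ± 0.42, adjusted p = 0.0139). Etv1, a factor of proprioceptive neurons, had 63.0 ± 31.5 CPM in axons and 146 ± 42.3 CPM in somas (SD, n = 4 each, log2 fold change -1.60 ± 0.41, adjusted p = 0.0224). In peripheral axons 23 could be tested, with 4 lower and 4 higher (12.5% and 18.7% of all genes) and a median of -0.71, beside -1.47 for the 8 factors and -0.03 for all genes.

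Isl2, the close relative of Isl1, was among those that fell in peripheral axons, at 149 ± 44.5 CPM in axons and 703 ± 131 CPM in somas (SD, n = 4 each, log2 fold change -2.42 ± 0.32, adjusted p = 0.000257). Maf had 249.9 ± 142 CPM in axons and 11.6 ± 4.74 CPM in somas (SD, n = 4 each, log2 fold change 4.22 ± 0.43, adjusted p = 5.69e-05), and Ebf2, which is also made in connective tissue, had 101 ± 35.8 CPM in axons and 8.70 ± 1.86 CPM in somas (SD, n = 4 each, log2 fold change 3.36 ± 0.36, adjusted p = 7.4e-05). In the same libraries 10 Schwann cell markers summed to 10763 to 27908 CPM in axons and 679 to 852 CPM in somas, and 6 fibroblast markers to 3816 to 6686 and 173 to 364 CPM. Their part in these changes was not tested.

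**Figure D3:**
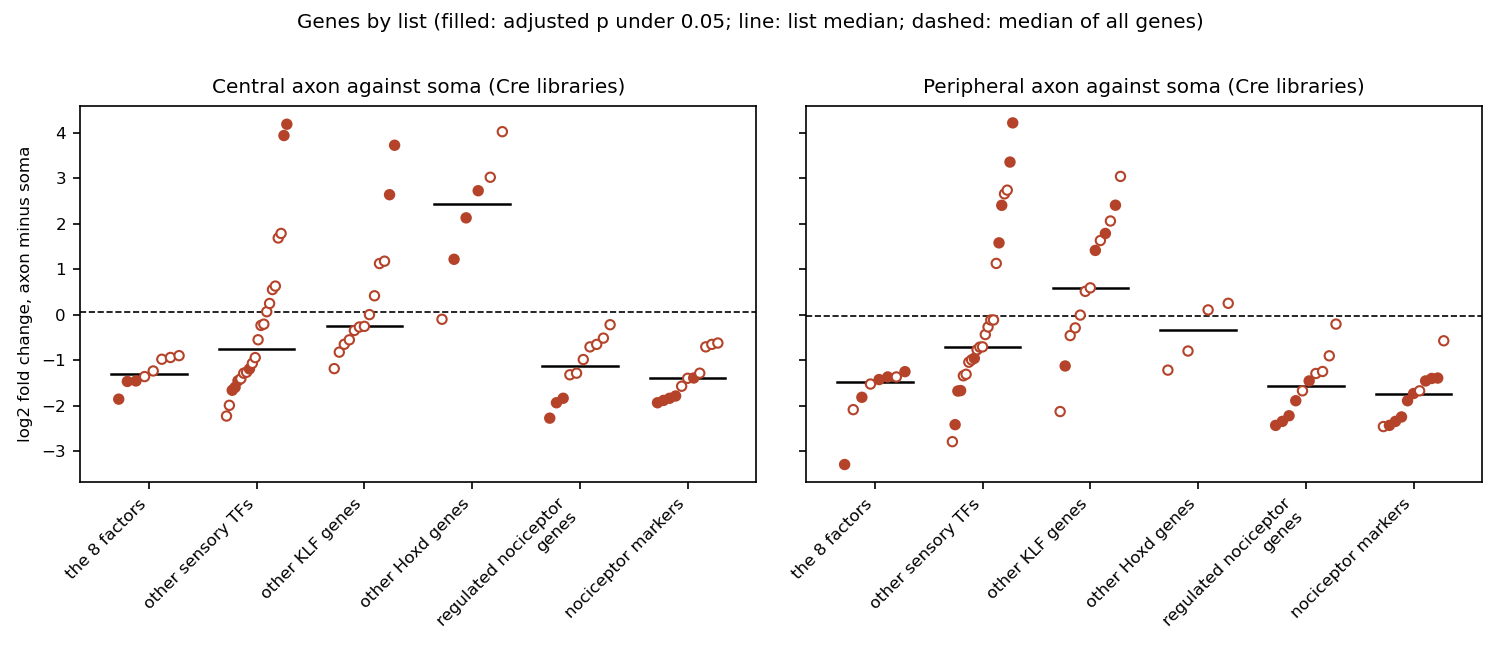
Log2 fold change, axon minus soma in Cre libraries, on the vertical axis for every tested gene of 6 lists on the horizontal axis (each point a gene; filled, adjusted p under 0.05; black line, list median; dashed line, median of all genes tested). The 8 factors all lie below 0 in both panels, with medians of -1.30 and -1.47, close to those of the nociceptor markers at -1.40 and -1.73, while the other sensory factors spread to both sides.

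The relatives of Klf7 and Hoxd1 were followed in the same way. Of 15 other KLF genes, 13 could be tested in each comparison. In central axons Klf12 and Klf15 were called higher (2 of 13, beside 8.63% of all genes) and none lower, as in Klf15 with 21.5 ± 16.1 CPM in axons and 1.21 ± 1.13 CPM in somas (SD, n = 4 each, log2 fold change 3.73 ± 0.95, adjusted p = 0.0217). In peripheral axons Klf3, Klf4 and Klf10 were called higher (3 of 13, beside 18.7% of all genes) and Klf5 lower (12.5% of all), as in Klf10 with 73.2 ± 41.2 CPM in axons and 23.4 ± 5.71 CPM in somas (SD, n = 4 each, log2 fold change 1.42 ± 0.36, adjusted p = 0.0123). Of 8 other Hoxd genes, 6 were tested in central axons and 3 were called higher (8.63% of all genes), Hoxd9, Hoxd10 and Hoxd11. Hoxd10, which patterns the lumbar spinal cord, had 99.0 ± 34.4 CPM in axons and 11.1 ± 7.50 CPM in somas (SD, n = 4 each, log2 fold change 2.73 ± 0.50, adjusted p = 0.00504). In peripheral axons 4 were tested and 0 were called by edgeR, with fold changes from -1.22 to 0.25, while Hoxd1 was called lower there. Controls also held these relatives. Summed by CPM, the other Hoxd genes in central axons were at 327.3% of their soma level with Cre and 392.1% in controls. The other KLF genes in peripheral axons were at 101.3% with Cre and 169.6% in controls, and in central axons at 84.7% and 43.4%. The difference between genotypes in these percentages was not tested.

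Genes known to depend on these factors were also examined. The list held 13 nociceptor genes, several of them also nociceptor markers, and was chosen with earlier results of these data known. In central axons 10 were tested, all had fold changes below 0 with a median of -1.13, and 3 were called lower (5.11% of all genes). Tac1, which encodes substance P, had 181 ± 96.4 CPM in axons and 498 ± 157 CPM in somas (SD, n = 4 each, log2 fold change -1.84 ± 0.45, adjusted p = 0.0177), and the itch receptor gene Mrgpra3 had 10.5 ± 4.43 CPM in axons and 39.3 ± 30.1 CPM in somas (SD, n = 4 each, log2 fold change -2.27 ± 0.56, adjusted p = 0.0191). In peripheral axons 10 were tested, again all below 0 with a median of -1.56, and 5 were called lower (12.5% of all genes). Calca, which encodes the peptide CGRP, had 318 ± 109 CPM in axons and 1407 ± 486 CPM in somas (SD, n = 4 each, log2 fold change -2.34 ± 0.40, adjusted p = 0.00128). The actin-binding advillin gene Avil, a marker of sensory neurons, had 173 ± 78.0 CPM in axons and 722 ± 129.6 CPM in somas (SD, n = 4 each, log2 fold change -2.22 ± 0.37, adjusted p = 0.00115). Summed over their genes, the 8 factors in Cre axons were at 55.0% (central) and 42.0% (peripheral) of their soma level by CPM, and the 11 nociceptor markers at 46.7% and 28.6%.

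**Figure D4:**
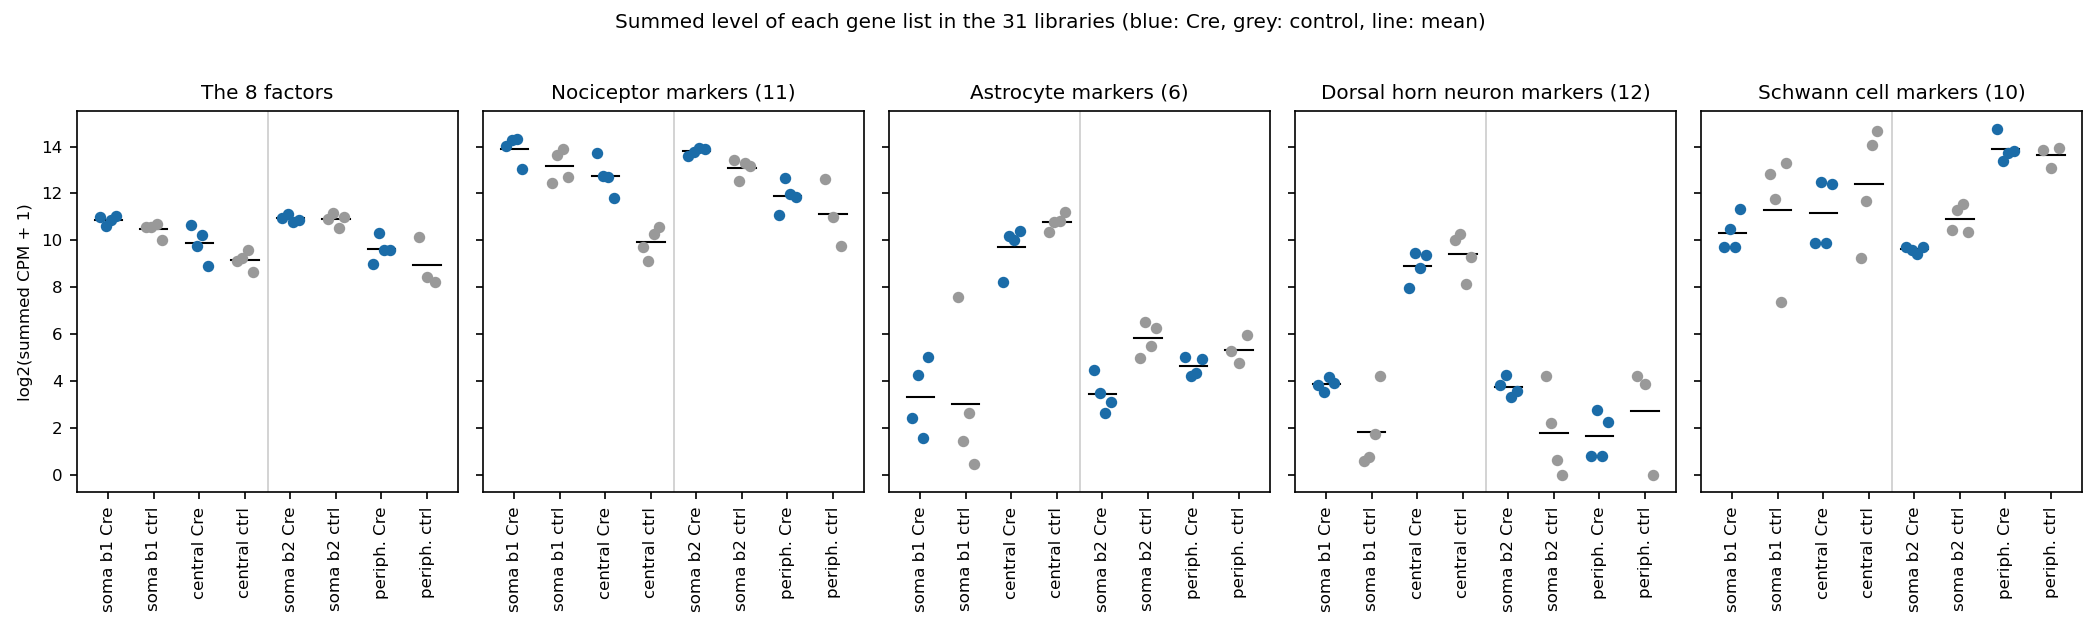
Summed level of 5 gene lists as log2(summed CPM + 1) on the vertical axis for each of the 31 libraries, in 8 groups on the horizontal axis (b1 and b2, batches 1 and 2; blue, Cre; grey, control; black line, mean of the log2 values). Sums of the 8 factors are 1579 to 2109 CPM in batch 1 Cre somas and 482 to 1615 CPM in central axon Cre libraries; astrocyte and dorsal horn neuron markers are high in both genotypes of central axons, and Schwann cell markers in both genotypes of peripheral axons.

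Across the 31 libraries the 8 factors varied together only in part. Pearson's r of log2(CPM + 1) between 2 factors ran from 0.187 (Klf7 and Prrxl1) to 0.76 over the 28 pairs, with a median of 0.536. These points share batch, depth and the step from soma to axon, and r is given as a description. Among the 13833 protein-coding genes with at least 10 counts in at least 8 libraries, the gene most like Isl1 was Calca (r = 0.896, n = 31 libraries), followed by Mtcl1 and Gabarapl1. Pou4f1 was most like Samd14 (0.892), Kcnab2 and the neuronal hydrolase gene Uchl1 (0.889). Prrxl1 was most like Zdhhc22 (0.908), and Klf7 most like Ppp1r2 (0.823), the touch channel gene Piezo2 (0.813) and Nrn1 (0.793). Pou4f2 was most like Jhy (0.905) and Fam19a4 (0.894), Runx1 like Samsn1 (0.865), Tlx3 like Anapc11 (0.857), and Hoxd1 like Grhl3 (0.939), Kcnh6 (0.919) and Insm1 (0.917). None of the 8 was among the 3 genes most like another of them. When the 8 groups were ordered by mean CPM for each factor, 53 of the 56 neighbouring pairs of groups overlapped in their ranges and 3 did not.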

How the data were processed

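The measurements were raw read counts per gene, deposited by the authors in 2 tables, 1 for each batch, with 55536 Ensembl gene rows in each, all named in GENCODE M21. Per the submitters' processing notes, STAR 2.7.2b and the mm10 build were used, and the counting program and its settings are not given in the sources used here. Per the labels' protocols, libraries were made with a SMART-Seq v4 kit, which amplifies cDNA and keeps no molecular identifiers. Library totals were 3.6 to 19.6 M counts. The header of the batch 1 table names 2 soma control columns alike, and these are called a and b.

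Each comparison was fitted across all genes that passed filterByExpr (at least 10 counts, total of at least 15) with edgeR 4.0.16 in R 4.3.3, using TMM scaling, the quasi-likelihood test and Benjamini-Hochberg adjustment over all genes, with 0.05 as the threshold. DESeq2 1.42.0, limma 3.58.1 (voom), other scalings, no filter, a fit of all 4 groups of a batch, a replicate block and leaving out each library were alternatives. The steps were tested on simulated data, in which the spread between libraries was set alike for all genes and comparisons. That test does not tell how the fits perform in the noisier comparisons that involve controls. Each SE was taken from the fit as the size of the log2 fold change over the root of its F statistic, and CPM was computed with Python 3.11.15. Replicates of a group differed by more than sampling noise (45 pairs, smallest chi-square per degree of freedom 15.8).

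The 8 factors and the gene lists were chosen with earlier results of these data known. Of each other list without marker genes, up to 3 genes per Cre comparison of axon with soma were eligible to be named, those called with the smallest adjusted p, and for likeness the 3 protein-coding genes with the highest Pearson correlation. Genes named in counts of 5 or fewer were added after their values were seen.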

Additional observations from a re-analysis of the deposited data

Results flagged for a closer look

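Sets of 4 values were examined, each the CPM of 1 factor or the library totals in 1 group of 4 libraries. In 7 of the 61 sets, 1 library lay apart from the other 3 by Dixon's gap ratio at the 95% level. Chance marks about 1 set in 20 only where values are normally distributed, which was not checked for these levels. The sets share libraries and are not independent. Where 3 libraries are at 0, any other value is marked, as for Pou4f2 and Runx1 in the central axon controls. Pou4f2 was at 107 CPM in batch 1 soma control 1, with 0 to 0.431 CPM in the other 3. Pou4f2 was at 0.727 CPM in central axon control 1, with 0 in the other 3, and at 69.4 CPM in batch 2 soma control 7, with 16.5 to 24.6 CPM in the other 3. Runx1 was at 239.6 CPM in batch 1 soma control b, with 0.47 to 32.3 CPM in the other 3, and at 8.32 CPM in central axon control 2, with 0 in the other 3. For library totals, batch 2 soma control 5 had 18.1 M counts and peripheral axon Cre replicate 2 had 15.1 M, each above the other 3 of its group. All 5 of the levels that stood apart were high values in control libraries.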

How the results depend on the processing

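In the Cre comparisons of axon with soma, all 8 factors kept a fold change below 0 under every alternative run. The number called in central axons (3) was 5 with no filter, 6 with DESeq2 and 5 with limma-voom. It was 0 with the 4 groups of the batch fitted jointly, and 0 to 6 when leaving out 1 library. All genes called in either direction (1990) were 3143 with DESeq2, 2361 with limma-voom and 15 with all 4 groups. Leaving out 1 library gave 822 to 2717 genes. In peripheral axons the number called (5) was 1 with all 4 groups and 3 to 7 leaving out 1 library. All genes called there (4818) were 1404 with all 4 groups and 3220 to 6055 leaving out 1 library. For the difference between axons (0 called), no filter and limma-voom each called 1, and leaving out 1 library 0 to 1. All genes called (2187) were 3290 with DESeq2, 3179 with limma-voom and 1394 to 2856 leaving out 1 library. There the log2 difference of Pou4f1 (0.09) was -0.032 with RLE and -0.027 with DESeq2, of Runx1 (-0.16) 0.44 and of Tlx3 (0.13) -0.11 with limma-voom, and leaving out 1 library gave -0.40 to 0.61 for Isl1, -0.42 to 0.82 for Pou4f1, -0.76 to 0.30 for Runx1, -0.23 to 0.46 for Tlx3 and -0.14 to 0.40 for Klf7.

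For Cre against control in central axons, DESeq2 and limma-voom called 1 factor, and all genes called (2) were 34 with no filter, 216 with DESeq2, 137 with limma-voom, 1 with all 4 groups, 0 without all libraries that stand apart (an alternative chosen after seeing the data) and 0 to 5 leaving out 1 library; Prrxl1 (-0.03) was 0.20 with limma-voom and -0.35 to 0.42 leaving out 1 library. In peripheral axons all genes called (0) were 27 with DESeq2 and 1 with all 4 groups, and Hoxd1 (-0.34) was 2.16 with limma-voom and -0.93 to 8.11 leaving out 1 library. In batch 2 somas all genes called (0) were 257 with library size alone, 21 with RLE, 162 with no filter, 1160 with DESeq2, 175 with all 4 groups and 0 to 1826 leaving out 1 library. With library size alone Isl1 (0.05) was -0.22, Runx1 (0.06) -0.21 and Klf7 (0.25) -0.013, and leaving out 1 library gave -0.036 to 0.17 for Isl1, -0.79 to 0.016 for Pou4f2 and -0.02 to 0.14 for Runx1.

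In batch 1 somas limma-voom called 0 factors and leaving out 1 library 0 to 1, and all genes called (516) were 2244 with library size alone, 1700.0 with no filter, 1902 with DESeq2, 0 with limma-voom, 2114 with all 4 groups and 0 to 3094 leaving out 1 library. Isl1 (0.04) was -0.31 with RLE and DESeq2, Pou4f2 (-0.86) 2.52 with limma-voom, Runx1 (-0.27) 0.025 with library size alone, 0.005 with no filter, 1.87 with limma-voom and 0.082 with all 4 groups, and Tlx3 (-3.32) 1.12 with library size alone, 2.79 with limma-voom and 0.26 with all 4 groups. Leaving out 1 library gave -0.31 to 0.90 for Isl1, -4.05 to 0.24 for Pou4f1, -1.34 to 2.74 for Pou4f2, -0.66 to 2.10 for Runx1, -3.67 to 2.67 for Tlx3 and -3.79 to 0.019 for Klf7. Between central axon and soma controls, all genes called (0) were 5 with library size alone, 46 with no filter, 392 with DESeq2, 754 with limma-voom, 3855 with all 4 groups (3 factors), 2 without all libraries that stand apart and 0 to 4 leaving out 1 library; Tlx3 (-2.87) was 0.36 without those libraries and -6.59 to 0.18 leaving out 1. Between peripheral axon and soma controls, limma-voom called 1 factor and leaving out 1 library 0 to 1, and all genes called (11) were 268 with no filter, 607 with DESeq2, 260.0 with limma-voom, 526 with all 4 groups and 0 to 43 leaving out 1 library. The cause of these changes was not tested.

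Same-numbered libraries deviated together weakly: in the Cre comparison of central axon with soma their correlations ran from -0.005 to 0.196 over 4 pairs, and no comparison with 3 or more pairs had all of them above 0.1, so the numbers were not taken to pair the libraries. With a replicate block, 6 factors and 6.35% of all genes were called lower there (3 and 5.11% without it), 0 factors and 0 genes in batch 1 somas, and 1 gene in all between Cre and control central axons; Prrxl1 was at 0.20 in the last, Hoxd1 at 5.77 between Cre and control peripheral axons and Runx1 at 1.49 in batch 1 somas. No paired analysis was possible because the numbers differ for peripheral axons against somas and for the difference between axons. Depth limits the low values: Hoxd1 and Pou4f2 in peripheral axons rest on few counts.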
